A study of Rattus norvegicus with 11 samples.

Results

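Transcripts of 34 genes that carry glucose to lactate and to the mitochondrial pyruvate dehydrogenase complex were followed in rat renal cortex after diabetes and after gastric bypass. The genes were taken from a fixed list of glycolytic enzymes, their regulators, the pyruvate dehydrogenase complex and its kinases and phosphatase, a lactate carrier and the hypoxia-inducible factor gene Hif1a. Each was found on the arrays by its RefSeq accession, and all 34 were measured, among 25250 genes tested in all. Of the 25250, 14358 had a gene name and 10892 had none. The changes of all genes given below for comparison cover both kinds, whereas all 34 members had names. They were represented by 43 probes, which all passed the filter of being well above background on at least 2 arrays. The 34 probes that stood for the genes in the fit were above background on all 11 arrays.

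Glycolysis splits glucose into pyruvate in the cytosol and yields a small amount of ATP without oxygen. Several steps are run by isoenzymes from separate genes, with liver-type, muscle-type and widely expressed forms. In the kidney the proximal tubule, which makes up most of the cortex, burns mainly fatty acids and other fuels and makes glucose, whereas the distal segments and the collecting duct rely more on glycolysis. Pyruvate enters the mitochondrion's fuel cycle through pyruvate dehydrogenase, which kinases (Pdk) switch off by phosphorylation and phosphatases (Pdp) switch on.

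The series compared 4 groups of Sprague Dawley rats. DM+RYGB rats had type 1 diabetes induced by streptozotocin, a toxin of the insulin-making beta cells, and 4 weeks later underwent Roux-en-Y gastric bypass (2 arrays). DM+Sham rats had the same diabetes and a sham operation (3 arrays), Control+RYGB rats had gastric bypass without diabetes (3 arrays), and Control+Sham rats had neither (3 arrays). Cortex was taken 4 weeks after surgery, and its total RNA was hybridised in 1 colour, 1 array per sample. Whether each array is a different rat is not stated in the labels, and p-values therefore reflect the spread among these samples, which may be technical.

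Levels are log2 signals relative to the 75th percentile of the same array, so they can be compared between samples for 1 probe but not between probes. The 75th percentile itself lay between 1541 and 4454 signal units, 77.7% to 93.5% of probes were well above background, and none was saturated. DM+Sham arrays 2 and 3, and Control+RYGB arrays 2 and 3, differed by less than repeated spots do within an array. Each of these pairs was averaged and counted as 1 sample, which left 9 samples: 2 DM+RYGB, 2 DM+Sham, 2 Control+RYGB and 3 Control+Sham.

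The library labelled DM+RYGB 2 stood apart. Its 11 heart muscle markers averaged 3.08, against -4.22 in DM+RYGB 1, -5.21 and -5.54 in the DM+Sham samples, -4.63 and -4.50 in the Control+RYGB samples and -5.64 to -5.28 in the Control+Sham samples. Among them, Tnni3, the troponin I of heart muscle, was at 5.87 in DM+RYGB 2 and at -5.85 in DM+RYGB 1, against -8.57 to -6.83 in the other groups. Ryr2, another of them, was lower in DM+RYGB 1 (-4.76) than in the other groups (-3.75 to -2.49). In both DM+RYGB samples all 11 were well above background. The 9 measured skeletal muscle markers averaged -3.30 in DM+RYGB 2 and -4.57 in DM+RYGB 1, against -6.00 to -5.14 in the other groups. Myh4, a myosin of fast skeletal muscle, was at -5.94 and -5.77, against -7.36 to -6.76. Ckm was at 3.19 in DM+RYGB 2 and at -4.01 in DM+RYGB 1, against -7.11 to -5.26. Casq1 went the other way, at -1.18 in DM+RYGB 2 and -1.54 in DM+RYGB 1, against -0.10 to 0.86. Actn3, at -4.51 and -4.90, lay within the -5.56 to -4.09 of the other groups. In DM+RYGB 1, too, the means of both marker sets thus lay above those of the other groups. Changes of the DM+RYGB group that passed the test are therefore also given without this library. That leaves DM+RYGB 1 as the only sample of the group, so tests in such fits hold no spread of it.

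As a check of the tissue, 20 of 20 proximal tubule markers were above background on every array. Their mean level was 1.99 and 1.41 in the DM+RYGB samples, against 3.08 and 2.88 in the DM+Sham samples, 3.72 and 3.50 in Control+RYGB and 2.57 to 2.87 in Control+Sham, and 12 of 20 fell in the comparison of DM+RYGB with DM+Sham. Markers of the distal tubule (9 measured) averaged 1.29 and 0.62 in DM+RYGB and -0.46 and -0.58 in DM+Sham. In bulk tissue, fewer cells of a type and less RNA per cell cannot be told apart. The part of this shift in the changes described here was not tested.

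Differences were tested with limma across all 25250 genes, and the words rose and fell are kept for genes whose Benjamini-Hochberg adjusted p was under 0.05 with the same sign under 3 scalings of the arrays (75th percentile, median and quantile). The printed log2 changes, standard errors and adjusted p-values are those of the 75th percentile scaling. That scaling moved the median of all genes by 0.57 between DM+RYGB and DM+Sham, by 0.29 between Control+RYGB and Control+Sham and by 0.59 between DM+RYGB and Control+Sham, but by 0.03 between DM+Sham and Control+Sham. With it alone, 79.3% of calls between DM+RYGB and DM+Sham were higher, against 37.6% with median scaling. Median scaling gave larger falls there, at -1.23 for Pfkp and -1.15 for Slc16a3.

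Diabetes in sham-operated rats lowered Pklr, the liver-type pyruvate kinase, by 2.69-fold and Pfkfb3, which makes the sugar bisphosphate that activates phosphofructokinase, by 2.58-fold. It also lowered Pdk3, while Gapdh, Aldoc and Pfkfb2 rose by 1.52-fold to 1.73-fold. That is 3 of 34 members higher and 3 lower (8.82% each), against 5.87% of all genes higher and 6.45% lower. These values are from the brightest probe of each gene. Second probes gave log2 differences of -0.25 for Pfkfb3, -0.18 for Pfkfb2 and -0.63 for Aldoc, the last a fall. Averaged over the probes of each gene, 0 members were higher and 3 lower. The members' median log2 change was 0.04, and that of all genes 0.03.

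Gastric bypass in diabetic rats raised 1 member, Pgam2, the muscle-type phosphoglycerate mutase, and lowered Pfkp, the platelet-type phosphofructokinase, and Slc16a3, a lactate exporter. These were 2.94% of members higher and 5.88% lower, against 10.4% and 10.9% of all genes. Gastric bypass in control rats raised no member and lowered 5 (Pfkfb3, Slc16a3, Eno1, Aldoc and Pfkp), or 14.7% of the members, against 6.93% of all genes higher and 5.49% lower. By an unadjusted limma p under 0.05, 6 members were higher and 6 lower there (of all genes, 34.6% higher and 9.03% lower). For bypass in control rats, the second probes of Pfkfb3 and Aldoc gave log2 differences of 0.09 and 0.41, which did not pass.

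In DM+RYGB against Control+Sham, Pgam2 rose and Pklr, Pfkfb3, Pdk3, Slc16a3 and Eno1 fell (2.94% of members higher and 14.7% lower), against 11.9% of all genes higher and 12% lower. The interaction, the effect of bypass in diabetic rats minus its effect in control rats, was positive for Pgam2 and Pfkfb3 and negative for Hif1a, that is 5.88% and 2.94% of members, against 6.48% and 8.08% of all genes. The second probe of Pfkfb3 gave 0.59 in DM+RYGB against Control+Sham and 0.74 for the interaction, and passed in neither. The comparisons share groups, so their lists of genes are not independent of one another.

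**Figure D1:**
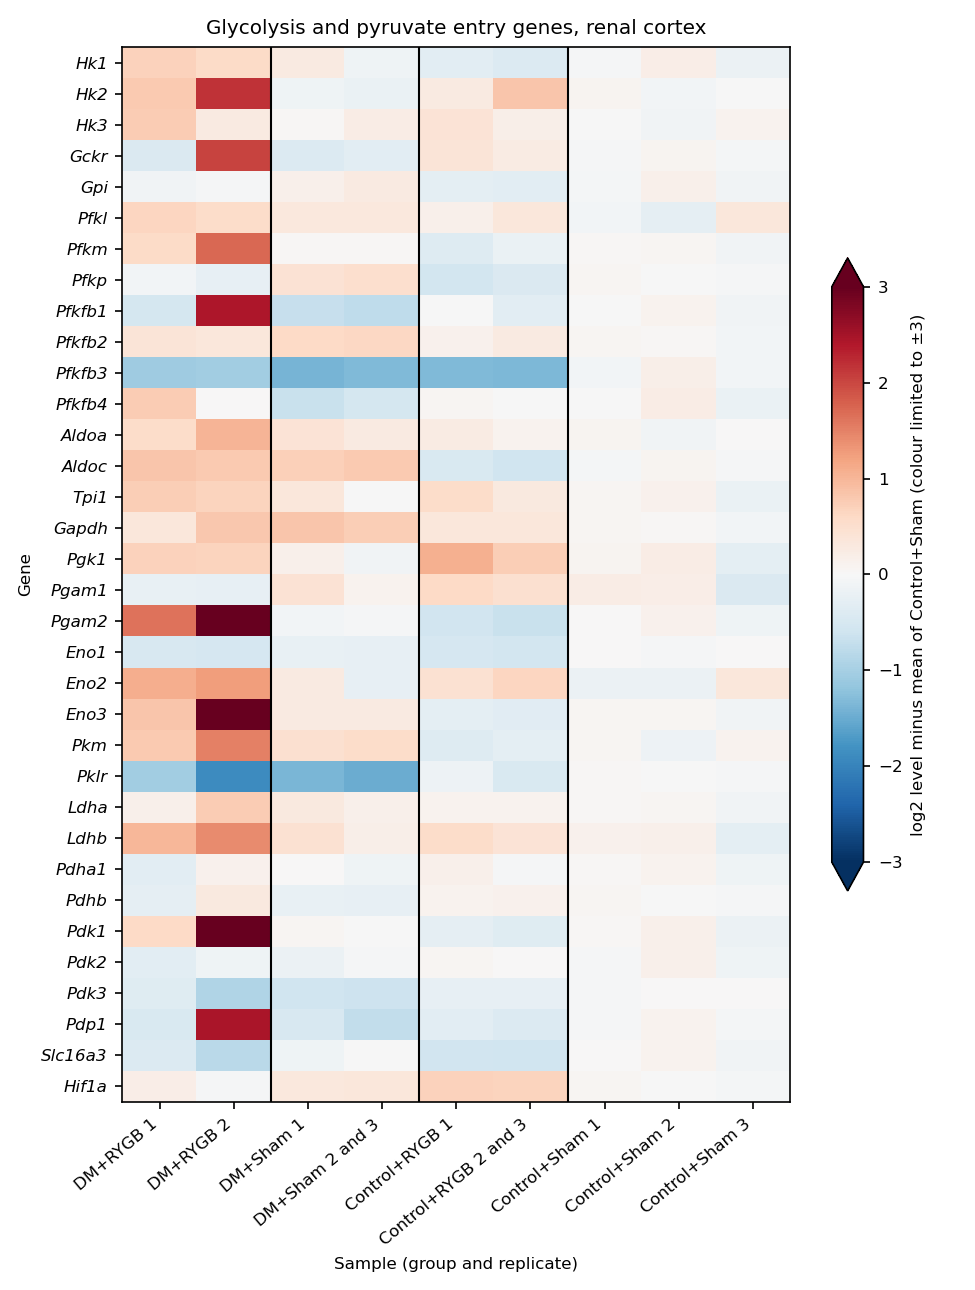
Log2 level of each of the 34 genes (rows, in pathway order) in the 9 samples (columns, named by group and replicate), minus the mean of the 3 Control+Sham samples, with red higher and blue lower, limited to 3 in either direction. Pfkfb3 and Pklr are blue in all DM+Sham and DM+RYGB samples, and Pgam2, Eno3, Pdk1, Pfkfb1, Pdp1, Gckr and Hk2 are red in DM+RYGB 2.

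The arrays were scanned on 5 days, and day and group overlapped in part. The day 2 and day 3 arrays each held a DM+Sham and a Control+Sham sample, and day 4 held DM+RYGB 1 and DM+Sham 3. No day held both groups of RYGB in control rats or of DM+RYGB against Control+Sham, so day and group cannot be told apart there. All Control+RYGB arrays lay at slide position 2, which no other array had, so position cannot be told apart from bypass in control rats or from the interaction. With scan day as a block 2 residual degrees of freedom were left, and none of the 23 changes of members passed. A different background correction (normexp) kept 5 of the 23: Pfkp and Pgam2 with bypass in diabetic rats, and Pgam2, Eno1 and Pklr in DM+RYGB against Control+Sham. The values within each day are given beside the changes below.

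Among the enzymes that trap glucose in the cell, none of Hk1, Hk2, Hk3 or the glucokinase regulator Gckr passed under all 3 scalings in any comparison. Hk1, the hexokinase of most tissues, was at 3.55 and 3.43 in DM+RYGB, 3.13 and 2.74 in DM+Sham, 2.55 and 2.45 in Control+RYGB and 2.84, 3.07 and 2.69 in Control+Sham. The Control+RYGB samples were the lowest and the DM+RYGB samples the highest. Hk2, the insulin-responsive form of muscle and fat, was at -3.47 and -2.09 in DM+RYGB, above the -4.39 and -4.46 of DM+Sham, with a log2 difference of 1.64 ± 0.42 (SE) whose limma adjusted p was 0.017 with the 75th percentile but 0.14 with quantile scaling. Without DM+RYGB 2 it was 0.95. Gpi, the isomerase of the next step, spanned only 1.79 to 2.38 over all 9 samples.

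Phosphofructokinase commits the sugar to glycolysis. Its platelet-type gene Pfkp was at 2.13 and 1.97 in DM+RYGB and at 2.63 and 2.72 in DM+Sham, so the groups did not overlap. It fell by 0.63 ± 0.11 on the log2 scale (SE, limma adjusted p = 0.0053), and the difference was -0.59 within scan day 4 and -0.55 without DM+RYGB 2. In control rats it was at 1.66 and 1.78 after bypass and at 2.27, 2.19 and 2.16 after sham surgery, again without overlap. That fall, of 0.49 ± 0.10 (adjusted p = 0.021), was lost without Control+Sham 1 (-0.45), Control+Sham 2 (-0.50), Control+RYGB 1 (-0.43) or Control+RYGB 2 and 3 (-0.54). In diabetes Pfkp was higher by 0.47 ± 0.10 (adjusted p = 0.027), which did not pass with median scaling (0.091).

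The muscle-type gene Pfkm was at 2.62 and 3.77 in DM+RYGB and at 2.08 in both DM+Sham samples. Its difference of 1.12 ± 0.33 had a limma adjusted p of 0.029, and of 0.26 with median scaling, and was 0.54 without DM+RYGB 2. The liver-type gene Pfkl passed in no comparison, and its 2 probes gave differences of 0.32 and 0.30 between DM+Sham and Control+Sham.

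The Pfkfb enzymes make and remove the sugar bisphosphate that switches phosphofructokinase on. Pfkfb3, the form with the strongest kinase activity, was at -3.32 and -3.25 in DM+Sham, against -2, -1.75 and -2 in Control+Sham. After bypass it was at -2.99 and -2.96 in DM+RYGB, against the DM+Sham values just given, and at -3.25 and -3.27 in Control+RYGB. The Control+Sham samples thus stood above all other groups.

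On the log2 scale Pfkfb3 fell by 1.37 ± 0.11 with diabetes (SE, limma adjusted p = 8e-04), by 1.34 ± 0.11 with bypass in control rats (adjusted p = 0.0013) and by 1.06 ± 0.11 in DM+RYGB against Control+Sham (adjusted p = 0.00074). Within scan days 2 and 3 the diabetes difference was -1.57 and -1.26. The interaction was 1.65 ± 0.17 (adjusted p = 0.0018), since bypass moved Pfkfb3 by 0.31 ± 0.12 in diabetic rats (adjusted p = 0.073). These 4 calls held when each of the 9 samples was left out, and without DM+RYGB 2 the last 2 contrasts were -1.08 and 1.64. All 4 were lost with normexp (-1.24, -1.20, -0.27 and 2.16, adjusted p = 0.2, 0.14, 0.46 and 0.056) and with scan day as a block. Averaged over both probes of Pfkfb3 they were -0.81, -0.62, -0.24 and 1.20, of which -0.24 did not pass (adjusted p = 0.076). Markers of the urothelium, the lining of the renal pelvis, moved in the same comparisons: their mean level was -4.68 and -5.09 in DM+RYGB, -6.58 and -6.67 in DM+Sham, -5.37 and -5.96 in Control+RYGB and -2.75 to -2.55 in Control+Sham, and 6 of 7 fell with diabetes and 6 of 7 with bypass in control rats. Their part in the falls of Pfkfb3 was not tested.

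Pfkfb3 had a second probe, which did not share this pattern. It was at -2.91 and -2.72 in DM+RYGB, -3.57 and -3.73 in DM+Sham, -3.43 and -3.19 in Control+RYGB and -3.44, -3.59 and -3.17 in Control+Sham. The DM+RYGB samples were the highest, and the Control+Sham samples overlapped with both DM+Sham and Control+RYGB. Its diabetes difference was -0.25 (limma adjusted p over probes = 0.33), and it passed in no comparison under all 3 scalings. Both probes carry the same RefSeq accession, and where in the transcript they lie is not given in the sources used here.

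Pfkfb2, the heart and kidney form, was at -2.56 and -2.53 in DM+Sham and at -3.10, -3.11 and -3.24 in Control+Sham, without overlap. It rose by 0.61 ± 0.10 (limma adjusted p = 0.01), and by 0.55 and 0.72 within scan days 2 and 3. The call was lost when any 1 sample other than DM+RYGB 1 or DM+RYGB 2 was left out, with a log2 change of 0.56 to 0.63. Its second probe ran the other way, at -3.70 and -3.71 in DM+Sham and -3.50, -3.63 and -3.47 in Control+Sham, a difference of -0.18 (adjusted p over probes = 0.51).

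Pfkfb4 was at -3.76 and -3.62 in DM+Sham and at -3.11, -2.89 and -3.31 in Control+Sham, a log2 difference of -0.59 ± 0.23 (limma adjusted p = 0.14). Pfkfb1, the form of liver and muscle, was at -5.85 and -5.93 in DM+Sham and at -5.18, -5.05 and -5.27 in Control+Sham, a difference of -0.73 ± 0.74 (adjusted p = 0.55). Neither pair of groups overlapped, and both genes fell when either DM+RYGB sample was left out (adjusted p = 0.03 for Pfkfb4 and 0.011 for Pfkfb1). Between DM+RYGB 1 and 2 the levels were -5.69 and -2.75 for Pfkfb1, and -2.33 and -3.08 for Pfkfb4.

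**Figure D2:**
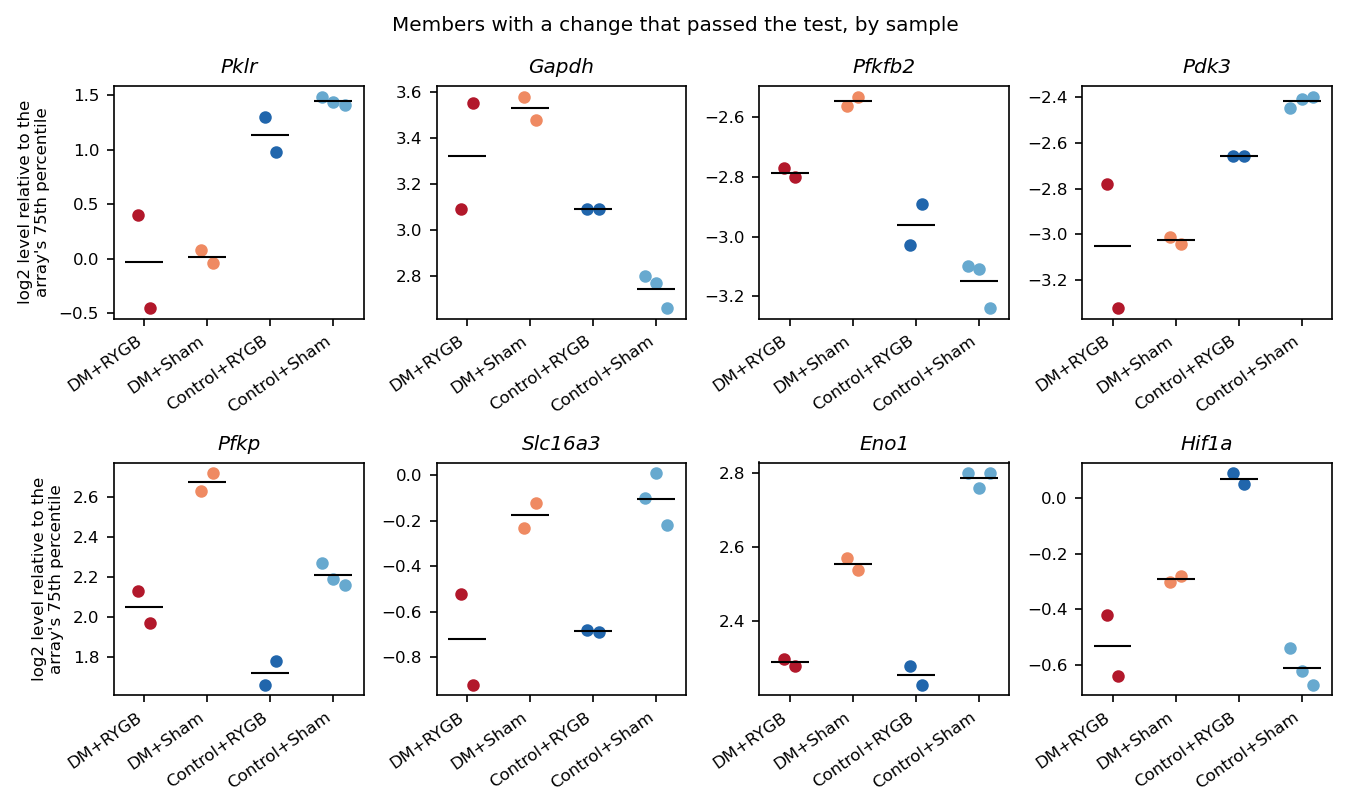
Log2 level relative to the array's 75th percentile for 8 genes with a change that passed the test, by group; points are the 9 samples and bars the group means. Pklr is lower in DM+RYGB and DM+Sham than in both control groups, Pfkp and Slc16a3 are lower in each bypass group than in its sham group, and Hif1a is highest in Control+RYGB.

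Aldolase splits the bisphosphate into triose phosphates. Aldoc, the form best known from brain, was at -1.33 and -1.26 in DM+Sham and at -2.10, -1.96 and -2.07 in Control+Sham. After bypass it was at -1.22 and -1.25 in DM+RYGB, against those DM+Sham values, and at -2.49 and -2.64 in Control+RYGB. The diabetic groups lay above both control groups. It rose by 0.75 ± 0.10 with diabetes (limma adjusted p = 0.005; 0.63 and 0.81 within scan days 2 and 3) and fell by 0.52 ± 0.10 with bypass in control rats (adjusted p = 0.017).

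The diabetes call for Aldoc was lost without Control+Sham 1 (0.72) or DM+Sham 2 and 3 (0.72), and the bypass call without Control+Sham 1 (-0.55), Control+Sham 2 (-0.48), Control+RYGB 1 (-0.60) or Control+RYGB 2 and 3 (-0.44). A second Aldoc probe gave the opposite direction in diabetes. It was at -4.71 and -4.91 in DM+Sham and at -4.45, -4.19 and -3.90 in Control+Sham, and fell by 0.63 (adjusted p over probes = 0.048). In DM+RYGB it was at -3.57 and -3.53, and it rose by 1.26 over DM+Sham (adjusted p over probes = 0.0027). Averaged over both probes, the diabetes change of Aldoc was 0.06 (adjusted p = 0.75), so its direction with diabetes depends on the probe.

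**Figure D3:**
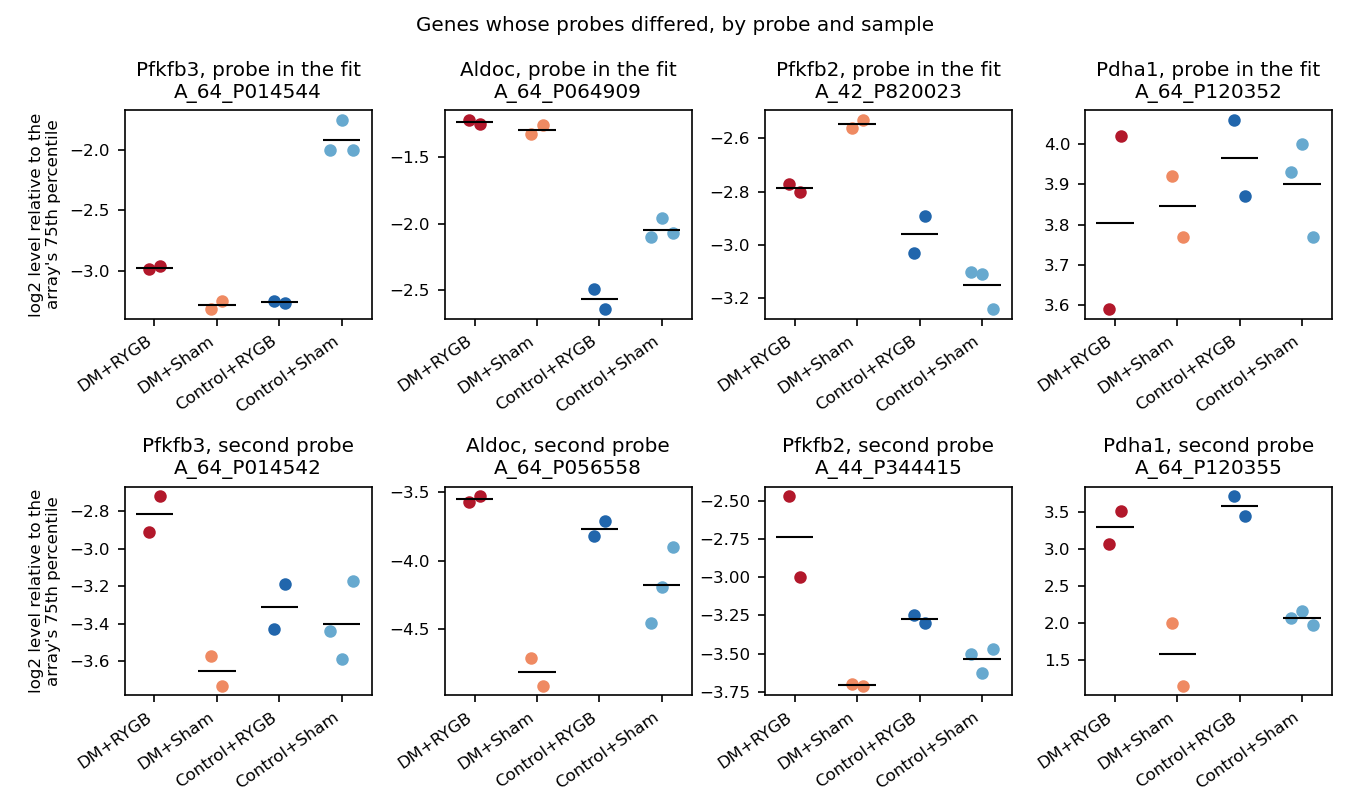
Log2 level relative to the array's 75th percentile in the 9 samples for both probes of Pfkfb3, Aldoc, Pfkfb2 and Pdha1, with the probe used in the fit in the upper row and the second probe in the lower row; bars are group means. The DM+Sham samples lie above Control+Sham for the upper Aldoc probe and below it for the lower one, and only the upper Pfkfb3 probe sets Control+Sham above every other group.

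Aldoa, the muscle-type aldolase, and Tpi1, which interconverts the triose phosphates, passed in no comparison. Aldoa was at 1.48 and 1.94 in DM+RYGB, 1.34 and 1.21 in DM+Sham, 1.17 and 1.03 in Control+RYGB and 1.02, 0.83 and 0.94 in Control+Sham. The DM+RYGB samples were the highest, yet their difference of 0.43 ± 0.17 from DM+Sham was below the all-gene shift of 0.57.

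Gapdh, the dehydrogenase of the next step and a common reference gene, was at 3.58 and 3.48 in DM+Sham and at 2.80, 2.77 and 2.66 in Control+Sham. It rose by 0.79 ± 0.15 (limma adjusted p = 0.016), and by 0.81 and 0.83 within scan days 2 and 3. The call was lost when any 1 sample other than DM+RYGB 1 or DM+RYGB 2 was left out, with a change of 0.74 to 0.84. The other 2 probes of Gapdh gave differences of 0.70 (adjusted p over probes = 0.14) and 0.25 (0.52). DM+RYGB 1, at 3.09, lay below both DM+Sham samples, and DM+RYGB 2, at 3.55, between them.

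Pgk1, which makes the first ATP of the pathway, was at 5.53 and 5.18 in Control+RYGB and at 4.53, 4.67 and 4.16 in Control+Sham. Its log2 difference of 0.90 ± 0.19 had a limma adjusted p of 0.02, and of 0.069 with median and 0.55 with quantile scaling. Pgam1, the widely expressed phosphoglycerate mutase, was at 3.99 and 3.97 in DM+RYGB and at 4.64 and 4.31 in DM+Sham, a difference of -0.50 ± 0.24 (adjusted p = 0.12).

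Pgam2, the mutase of muscle, was at 0.41 and 2.68 in DM+RYGB and at -1.29 and -1.24 in DM+Sham. It was at -1.79 and -1.89 in Control+RYGB and at -1.21, -1.09 and -1.34 in Control+Sham. Both DM+RYGB samples lay above all 7 others. It rose by 2.81 ± 0.63 over DM+Sham (7.01-fold, limma adjusted p = 0.011) and by 2.76 ± 0.58 over Control+Sham (adjusted p = 0.0069), with an interaction of 3.44 ± 0.85 (adjusted p = 0.031).

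Leaving out DM+RYGB 2, the library with the heart markers, left 1 DM+RYGB sample. Pgam2 was then higher by 1.67 than in DM+Sham and by 1.62 than in Control+Sham, and the interaction was 2.30. Within scan day 4 the difference from DM+Sham was 1.63. The rise over DM+Sham was lost without DM+Sham 1 (2.79) or DM+Sham 2 and 3 (2.83), and the rise over Control+Sham without Control+Sham 1 (2.76) or Control+Sham 3 (2.69). The interaction was lost when any sample outside DM+RYGB was left out, with a value of 3.38 to 3.50. It was 4.58 without DM+RYGB 1.

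Enolase makes phosphoenolpyruvate. Eno1, the widely expressed form, was at 2.28 and 2.23 in Control+RYGB and at 2.80, 2.76 and 2.80 in Control+Sham. It fell by 0.53 ± 0.09 (limma adjusted p = 0.01), and the call was lost without Control+RYGB 1 (-0.56) or Control+RYGB 2 and 3 (-0.51). In DM+RYGB it was at 2.30 and 2.28, and it fell by 0.50 ± 0.09 against Control+Sham (adjusted p = 0.0035), and by 0.49 without DM+RYGB 2. The DM+Sham samples, at 2.57 and 2.54, lay between. Eno2, the form of neurons, was at -3.15 and -2.99 in DM+RYGB and at -3.97 and -4.47 in DM+Sham, a difference of 1.15 ± 0.24 whose adjusted p was 0.0085 but 0.065 with median scaling.

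Pyruvate kinase makes pyruvate, from the gene Pkm in most tissues and from Pklr in liver, red cells and proximal tubule. Pklr was at 0.08 and -0.04 in DM+Sham, against 1.49, 1.44 and 1.41 in Control+Sham. The samples of these groups were far apart relative to the spread within each. It fell by 1.43 ± 0.24 (limma adjusted p = 0.011), and by 1.36 and 1.45 within scan days 2 and 3. The call was lost without DM+Sham 1 (-1.49) or DM+Sham 2 and 3 (-1.37). The 9 liver markers averaged -4.10 and -4.52 in DM+Sham and -3.29 to -3.19 in Control+Sham, and 1 rose and 2 fell. They averaged -1.50 and -1.56 in Control+RYGB. The 7 measured red blood cell markers averaged -1.33 and -1.55 in DM+Sham and -2.71 to -2.51 in Control+Sham. The 20 proximal tubule markers averaged 3.08 and 2.88 in DM+Sham and 2.57 to 2.87 in Control+Sham. The part of these cell types in the fall of Pklr was not tested.

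After bypass, Pklr was at 0.40 and -0.45 in DM+RYGB and so spread around the DM+Sham level, with a difference of -0.04 ± 0.27 (adjusted p = 0.9). It was at 1.30 and 0.98 in Control+RYGB, a difference of -0.31 ± 0.24 from Control+Sham (adjusted p = 0.37). In DM+RYGB against Control+Sham it fell by 1.47 ± 0.24 (adjusted p = 0.0029), and by 1.05 without DM+RYGB 2.

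The promoters of Pklr and Pfkfb3, the members with the largest falls in diabetes, are shown because both hold E-boxes, the letters bound by the glucose-sensing partners Mlxipl (ChREBP) and Mlx and by related factors such as Myc. Both are from RefSeq on the build GRCr8, plus strand, 250 bases before to 50 after an annotated transcript start, with E-box matches in capitals. The Pklr window is chr2:176841014-176841313 and lies within the annotated gene (176840779 to 176849637), whose liver-type transcript starts downstream of the red-cell one. The Pfkfb3 window is chr17:71944683-71944982, also within its annotated gene (71893320 to 71974526).
Pklr: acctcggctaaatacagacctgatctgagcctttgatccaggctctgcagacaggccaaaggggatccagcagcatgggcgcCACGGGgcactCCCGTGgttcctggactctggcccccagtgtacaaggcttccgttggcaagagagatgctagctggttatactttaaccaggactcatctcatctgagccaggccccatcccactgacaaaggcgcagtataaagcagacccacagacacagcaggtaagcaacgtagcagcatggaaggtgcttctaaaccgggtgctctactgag
Pfkfb3: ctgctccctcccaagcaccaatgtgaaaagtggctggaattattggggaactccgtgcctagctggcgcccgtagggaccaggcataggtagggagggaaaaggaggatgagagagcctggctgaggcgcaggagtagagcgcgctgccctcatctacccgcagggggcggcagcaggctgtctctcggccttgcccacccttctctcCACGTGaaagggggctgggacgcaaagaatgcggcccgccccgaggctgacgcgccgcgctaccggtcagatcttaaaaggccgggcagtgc
In the Pklr window, the capitals mark CACGGG and, read on the other strand, a second CACGGG, 5 bases apart and at -168 to -152 from the start, the known carbohydrate response element of this gene. In the Pfkfb3 window they mark a single CACGTG at -42 to -37.

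Promoters were given for 32 of the 34 members, Pgk1 and Pdp1 being without one. CACGTG or CACGGG on either strand was in 11 of these 32 windows (34.4%), against 16.7% of the 21851 promoter windows of all genes in the table. A pair of such E-boxes 5 bases apart, both CACGTG or CACGGG followed by its reverse complement, was in 1 window of the 21851, that of Pklr. As this pattern was written from that known element, its match there is no finding. The core of the hypoxia response element, ACGTG or GCGTG, was in 20 of 32 member windows (62.5%) and in 45.8% of all windows. CACGTG contains ACGTG, so the counts overlap, and a match does not show that a factor binds.

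Pkm was at -1.08 and -0.36 in DM+RYGB, -1.38 and -1.33 in DM+Sham, -2.25 and -2.17 in Control+RYGB and -1.82, -2.03 and -1.76 in Control+Sham. The order of the groups followed diabetes, but the diabetes difference of 0.52 ± 0.21 had a limma adjusted p of 0.15. Its second, dimmer probe, above background on 10 of 11 arrays, was at -1.29 in DM+RYGB 2 and at -5.98 in DM+RYGB 1, with all others at -7.54 to -6.53.

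Lactate dehydrogenase turns pyruvate into lactate and back. Ldha passed in no comparison, at 3.85 and 4.45 in DM+RYGB, 3.98 and 3.85 in DM+Sham, 3.80 and 3.80 in Control+RYGB and 3.74, 3.75 and 3.60 in Control+Sham. Ldhb, the heart-type subunit, was at 5.58 and 6 in DM+RYGB and at 5.05 and 4.76 in DM+Sham. Its difference of 0.88 ± 0.22 had a limma adjusted p of 0.015, and of 0.36 with median and 0.97 with quantile scaling.

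Slc16a3, the carrier by which glycolytic cells release lactate, was at -0.52 and -0.92 in DM+RYGB and at -0.23 and -0.12 in DM+Sham. In control rats it was at -0.68 and -0.69 after bypass and at -0.10, 0.01 and -0.22 after sham surgery. Both bypass groups lay below both sham groups. It fell by 0.54 ± 0.16 with bypass in diabetic rats (limma adjusted p = 0.028), by 0.58 ± 0.15 in control rats (adjusted p = 0.031) and by 0.62 ± 0.15 in DM+RYGB against Control+Sham (adjusted p = 0.011; a fall of 0.42 without DM+RYGB 2).

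In diabetic rats the Slc16a3 call was lost without DM+RYGB 2 (-0.34), Control+Sham 1 (-0.54), DM+Sham 1 (-0.60), DM+Sham 2 and 3 (-0.49), Control+RYGB 1 (-0.54) or Control+RYGB 2 and 3 (-0.54), and within scan day 4 the difference was -0.41. In control rats it was lost without Control+Sham 1 (-0.58), Control+Sham 2 (-0.52), Control+RYGB 1 (-0.58) or Control+RYGB 2 and 3 (-0.58). The interaction was 0.04 ± 0.22 (adjusted p = 0.92).

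The catalytic subunits of pyruvate dehydrogenase, Pdha1 and Pdhb, passed in no comparison. Pdha1 lay between 3.59 and 4.06 in all 9 samples. Its second probe differed: it was at 3.07 and 3.51 in DM+RYGB and 2.01 and 1.16 in DM+Sham, and at 3.71 and 3.44 in Control+RYGB and 2.07, 2.17 and 1.98 in Control+Sham. That probe rose with bypass by 1.70 in diabetic rats (limma adjusted p over probes = 0.0043) and by 1.51 in control rats (adjusted p over probes = 0.012), where the probe in the fit gave -0.04 and 0.06.

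Of the regulators of the complex, the kinase gene Pdk3 was at -3.01 and -3.04 in DM+Sham and at -2.45, -2.41 and -2.40 in Control+Sham. It fell by 0.60 ± 0.16 with diabetes (limma adjusted p = 0.047), and by 0.59 and 0.65 within scan days 2 and 3. That call was lost when any 1 sample other than DM+RYGB 1 or DM+RYGB 2 was left out, at -0.62 to -0.59. In DM+RYGB it was at -2.78 and -3.32, a fall of 0.63 ± 0.16 against Control+Sham (adjusted p = 0.014), and of 0.36 without DM+RYGB 2. With normexp the direction of that difference turned, to 0.16 (adjusted p = 0.73).

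Pdk2 and the phosphatase Pdp1 passed in no comparison, and neither did Pdk1. Pdk1 was at -2.86 and -0.08 in DM+RYGB and at -3.38 and -3.47 in DM+Sham. Pdp1 was at -1.67 and -1.92 in DM+Sham and at -1.22, -1.09 and -1.25 in Control+Sham, a difference of -0.61 ± 0.73 (adjusted p = 0.61). The same difference passed when either DM+RYGB sample was left out (adjusted p = 0.011), and their Pdp1 levels were -1.64 and 1.26.

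Hif1a encodes the oxygen-regulated subunit of a factor that drives many glycolytic genes under low oxygen, mainly through the stability of its protein. Its transcript was at -0.42 and -0.64 in DM+RYGB and at -0.30 and -0.28 in DM+Sham, and at 0.09 and 0.05 in Control+RYGB and -0.54, -0.62 and -0.67 in Control+Sham. The Control+RYGB samples were the highest. Bypass differed by -0.24 ± 0.12 in diabetic rats (limma adjusted p = 0.13) and by 0.68 ± 0.11 in control rats (adjusted p = 0.0092, but 0.075 with median scaling). The interaction of -0.91 ± 0.16 passed (adjusted p = 0.0095), also when each sample was left out, and was -0.81 without DM+RYGB 2.

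The heart markers of DM+RYGB 2 moved with a set of the members. In that sample 8 of 34 members (23.5%) were more than 1 log2 unit above DM+RYGB 1, against 4.81% of all genes, and 0 were as far below, against 4.97%. They were Eno3, the muscle enolase (3.04), Pfkfb1 (2.94), Pdp1 (2.90), Pdk1 (2.78), Gckr (2.47), Pgam2 (2.28), Hk2 (1.38) and Pfkm (1.15). Several of these are genes known for their expression in striated muscle. Eno3 was at 3.43 in DM+RYGB 2, at 0.39 in DM+RYGB 1 and between -0.78 and -0.16 in the 7 other samples. Whether RNA from muscle tissue entered that sample was not tested.

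**Figure D4:**
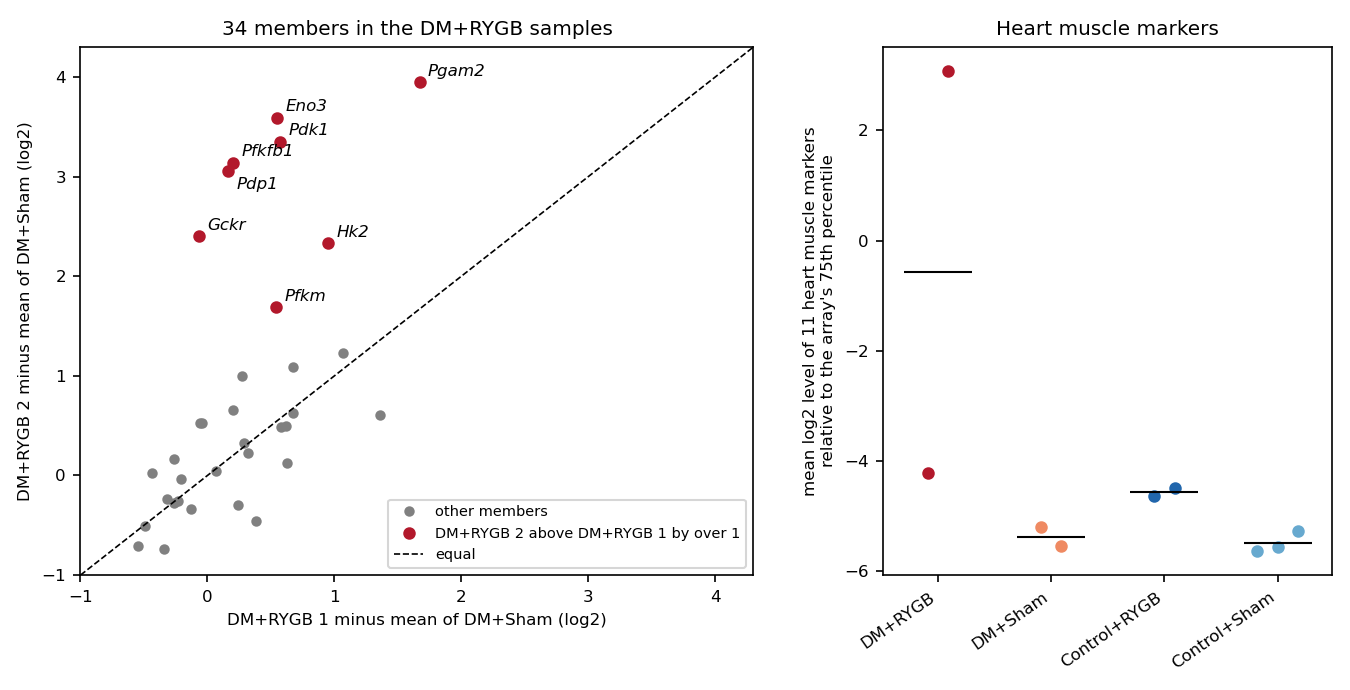
Left, log2 difference of each of the 34 genes from the mean of DM+Sham, in DM+RYGB 1 (horizontal) and DM+RYGB 2 (vertical), with the 8 genes higher by over 1 in DM+RYGB 2 in red and the line of equal values dashed. Right, mean log2 level of the 11 heart muscle markers in each of the 9 samples, with bars for group means, where DM+RYGB 2 at 3.08 stands above all others.

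Leaving out either DM+RYGB sample left 1 in that group, so its comparisons are given here as differences. Calls from such fits enter only the leave-out results of the closing section. The members' median difference from the DM+Sham mean was 0.22 in DM+RYGB 1 and 0.50 in DM+RYGB 2, against 0.61 and 0.50 for all genes. In the same order it was 1.67 and 3.95 for Pgam2, -0.55 and -0.71 for Pfkp, -0.44 and 0.02 for Gapdh and -0.26 and -0.28 for Eno1. Without either one, 6 of 34 members fell with diabetes and 10 of 34 with bypass in control rats, comparisons that hold neither sample, since the fit estimates each gene's spread over all groups. Of all genes, 10.1% and 9.99% fell in those fits.

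Of 26 further genes of the pathway, 22 were measured. With bypass in diabetic rats 1 rose and 4 fell (4.55% and 18.2%), against 10.4% and 10.9% of all genes. Minpp1, an inositol phosphate phosphatase that also acts on a glycolytic bisphosphate, was at 0.13 and -0.02 in DM+RYGB and at 1.06 and 1.02 in DM+Sham, and fell by 0.99 ± 0.11 (limma adjusted p = 0.0012). Ldhc, the testis-type lactate dehydrogenase, fell by 0.80, the pyruvate dehydrogenase phosphatase Pdp2 by 0.78 and Pdpr, a subunit that regulates such phosphatases, by 0.74. Without DM+RYGB 2, which left 1 DM+RYGB sample, these differences were -0.91 for Minpp1, -0.43 for Ldhc, -0.69 for Pdp2 and -0.92 for Pdpr. Pdpr was the only one of the 22 called with diabetes, where it rose by 0.85 ± 0.13 (adjusted p = 0.0086). Ldhc was the only one called with bypass in control rats, where it fell by 1.29. Of all genes, 5.87% were higher and 6.45% lower with diabetes, and 6.93% and 5.49% with bypass in control rats.

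The fasting-induced kinase Pdk4, named after its values were seen, was at -0.83 and -0.82 in DM+Sham and at -3.84, -3.89 and -3.95 in Control+Sham. Its log2 difference of 3.07 ± 0.75 had a limma adjusted p of 0.037 but did not pass under all 3 scalings. DM+RYGB 1 was at -3.47 and DM+RYGB 2 at -0.48, one at the level of the control groups and the other at that of DM+Sham. The diabetes difference of Pdk4 holds no DM+RYGB sample, so leaving out DM+RYGB 2 could not change its value of 3.07. Without DM+RYGB 2, the difference of Pdk4 with bypass in diabetic rats was -2.65, from 1 DM+RYGB sample. The lactate and pyruvate carrier Slc16a1, chosen in the same way, was at -4.62 in DM+RYGB 1 and 1.54 in DM+RYGB 2, against -0.73 and -0.81 in DM+Sham. The DM+RYGB samples thus lay on both sides of DM+Sham, and without DM+RYGB 2 the difference of this carrier from DM+Sham was -3.85.

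Among 18 other known targets of hypoxia-inducible factors, 16 were measured. With diabetes 1 rose and 4 fell (6.25% and 25%), against 5.87% and 6.45% of all genes. Ddit4, an inhibitor of the growth kinase mTOR, was at 1.70 and 1.92 in DM+Sham and at 2.85, 2.73 and 2.90 in Control+Sham, and fell by 1.02 ± 0.14 (limma adjusted p = 0.0059). Loxl2, which crosslinks matrix, fell by 0.92, while Higd1a fell by 0.55 and Ankrd37 rose by 0.78. With bypass in diabetic rats Mxi1 rose by 1.79 (2.12 without DM+RYGB 2) and Ndrg1 fell by 1.26 (-1.04 without it). With bypass in control rats Ddit4 fell by 0.87 and Loxl2 by 0.61.

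Of 12 regulators of glycolytic genes, 11 were measured. Myc, a transcription factor that activates many glycolytic genes, was at -0.56 and -0.48 in DM+Sham and at 1.52, 1.47 and 1.51 in Control+Sham, and fell by 2.02 ± 0.09 (limma adjusted p = 0.00012). Txnip, a brake on glucose uptake and a target of Mlxipl, was at 3.20 and 3.26 in DM+RYGB and at 1.58 and 0.20 in DM+Sham. It rose by 2.34 ± 0.45 with bypass in diabetic rats (adjusted p = 0.0066) and by 2.10 ± 0.42 in control rats (adjusted p = 0.017). Vhl, which marks hypoxia-inducible factors for destruction, fell by 0.62 ± 0.13 with bypass in diabetic rats (adjusted p = 0.0091), and Mlx by 0.36 ± 0.11 (adjusted p = 0.032). Without DM+RYGB 2, which left 1 DM+RYGB sample, the differences in diabetic rats were 2.32 for Txnip, -0.46 for Vhl and -0.36 for Mlx. Ppargc1a, a coactivator of mitochondrial genes, rose by 0.61 ± 0.11 with diabetes (adjusted p = 0.015).

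Mlxipl itself was at -2.81 and -2.82 in DM+Sham and at -2.96, -3.22 and -2.67 in Control+Sham, and its groups overlapped (difference 0.14 ± 0.17, adjusted p = 0.62). Epas1, which encodes the second hypoxia-inducible alpha subunit, was at 0.35 and 0.42 in DM+RYGB and at -0.70, -0.67 and -0.87 in Control+Sham, and rose by 1.13 ± 0.10 (limma adjusted p = 0.00047). That call was lost without DM+RYGB 2 (1.1).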

How the data were processed

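Renal cortex RNA of 11 rat samples was measured on 1-colour Agilent arrays. Per the file headers, the authors deposited spot intensity extracted with Agilent Feature Extraction 11.0.1.1, background-subtracted and not scaled between arrays. A further deposited table gives log2 values with a median of 7.07 in every column, which correlated with the scanner log2 values at 0.9887 to 0.9969. How it was made is not given in the sources used here, and it served as an alternative. The number of arrays limits the precision.

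From 44254 spots, 1377 controls and outlier-flagged spots were dropped (unless all spots of a probe were flagged) and repeated spots averaged to 30367 probes, of which 18005 had 1 gene name and 12362 none. Log2 intensity minus each array's 75th percentile entered 1 linear model of all 4 groups with 5 residual degrees of freedom (lmFit and eBayes, limma 3.58.1, R 4.3.3). The brightest probe above background on at least 2 arrays stood for a gene. The DM+Sham pair averaged as 1 sample had a log2 spread of 0.02 against a spot noise of 0.079, and the Control+RYGB pair 0.051 against 0.074.

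Calls needed an adjusted p under 0.05 with 75th percentile, median and quantile scaling. Standard errors of log2 changes are from limma. All 34 members were named, every probe of Aldoc and Pfkfb3, second probes that differed in direction or call, and up to 6 genes of each further list with the smallest p among those that passed, of which some are not reported here. The members and lists were chosen with earlier results of these data known. On simulated data, 68% of the genes changed by 2 log2 units between DM+Sham and Control+Sham, among 25250 simulated, were recovered. In that simulation 5.56% of calls fell on unchanged genes. Both rates describe the simulated data and are not the recovery or error rates of the calls given above. The alternatives are given in the closing section.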

Additional observations from a re-analysis of the deposited data

Results flagged for a closer look

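The effect of bypass differed between diabetic and control rats for 3 of the 34 genes, by the interaction term in limma. That is 5.88% of members higher and 2.94% lower, against 6.48% and 8.08% of all genes. The values are the change in diabetic rats minus the change in control rats, on the log2 scale. For Pgam2 the difference was 3.44 (adjusted p = 0.031), with changes of 2.81 in diabetic and -0.63 in control rats. For Pfkfb3 it was 1.65 (adjusted p = 0.0018), with changes of 0.31 in diabetic and -1.34 in control rats. For Hif1a it was -0.91 (adjusted p = 0.0095), with changes of -0.24 in diabetic and 0.68 in control rats. Without DM+RYGB 2, the sample with heart muscle markers, the differences were 2.30, 1.64 and -0.81. The second probe of Pfkfb3 gave an interaction of 0.74, which did not pass (limma adjusted p over probes = 0.066). With normexp or with scan day as a block, none of the 3 genes passed for the interaction. No group had the 4 samples needed to look for a single outlying sample.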

How the results depend on the processing

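Counts are of members higher and lower, in the order diabetes in sham rats (3 and 3), bypass in diabetic rats (1 and 2), bypass in control rats (0 and 5), DM+RYGB against Control+Sham (1 and 5) and the interaction (2 and 1). Normexp background correction gave 0 and 0, then 7 and 1, 0 and 0, 10 and 2, and 3 and 0. The 75th percentile alone gave 4 and 3, 9 and 2, 2 and 5, 17 and 5, and 4 and 1. Median scaling alone gave 3 and 3, 1 and 12, 0 and 8, 1 and 12, and 2 and 3. Quantile scaling alone gave 4 and 3, 1 and 9, 1 and 7, 5 and 7, and 3 and 3, and the deposited table the same but for 1 and 8 in the third comparison. Averaging the probes of a gene gave 0 and 3 with diabetes, and requiring a signal above background on all arrays gave 2 lower in the interaction. Taking 11 separate arrays gave 2 and 6 with bypass in diabetic rats, 1 and 7 in control rats, 2 and 5 in DM+RYGB against Control+Sham and 3 and 4 for the interaction. Scan day as a block left 0 in every comparison, at 2 residual degrees of freedom. The shared slide as a term gave 1 and 6 with bypass in control rats and 2 and 4 for the interaction. Fits of only the groups compared gave 2 and 5 with diabetes, 0 and 0 with bypass in diabetic rats, 0 and 7 in control rats and 0 and 5 in DM+RYGB against Control+Sham. The cause of these moves was not tested.

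Leaving out 1 sample at a time gave 0 to 3 higher and 1 to 6 lower with diabetes, 0 to 8 and 1 to 4 with bypass in diabetic rats, 0 and 1 to 10 in control rats, 0 to 10 and 5 to 9 in DM+RYGB against Control+Sham, and 1 to 10 and 1 to 2 for the interaction. Of 503 values of the 23 changes under the alternatives, 395 passed as before, 107 kept their direction but did not pass and 1 reversed: Pdk3 in DM+RYGB against Control+Sham was 0.16 with normexp. Normexp kept 5 of the 23 calls. Leaving out a sample of a group with 2 samples left 1 there, so such calls hold no spread of that group. The ranges above include such fits, also those whose only DM+RYGB sample was DM+RYGB 2.

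Deviations of 15 same-numbered pairs of arrays correlated between -0.44 and 0.46, 4 of them below 0. In groups of 2 or 3 arrays the deviations mirror each other, so this cannot tell whether replicate numbers pair the samples. With the replicate block on 11 separate arrays the counts were 4 and 3, 2 and 7, 1 and 7, 1 and 5, and 3 and 3, and all 23 changes still passed. In further lists, leaving out DM+RYGB 2 was an alternative added after the data were seen. It left 1 DM+RYGB sample, so calls are not counted for those lists.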
